A study of Rattus norvegicus with 3 samples.

Results

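The genes of the TGF-beta and bone morphogenetic protein (BMP) pathway were compared between the 3 major salivary glands of the rat. Members were chosen by name alone: probes whose gene name begins with Tgfb followed by a digit or r, or with Bmp, Gdf, Inhb, Smad, Acvr or Ltbp, together with Inha, Fst, Fstl1, Fstl3, Nog, Grem1, Chrd, Amh and Nodal. This gave 71 probes of 58 genes, out of 41012 probes on the array and 15973 genes that could be matched to RefSeq. All 58 members were matched, Gdf8 under its present symbol Mstn (myostatin) and Tgfb1i4 under Tsc22d1.

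The glands came from male Wistar rats aged 10 weeks, with no treatment named in the labels, and each gland was measured on 1 Agilent 1-colour array: submandibular gland, sublingual gland and parotid gland. The series names 3 rats, and no source used here says whether an array stands for 1 animal or a pool. With 1 array per gland there was no replicate of any gland, no difference was tested, and every fold below describes these arrays. RNA came from whole pieces of gland, so fewer cells of a type and less RNA per cell cannot be told apart.

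Ligands of this family are secreted dimers that bind pairs of type I and type II receptor kinases at the cell surface. The receptors phosphorylate Smad proteins, Smad2 and Smad3 for TGF-beta and activin and Smad1, Smad5 and Smad9 for BMPs, which enter the nucleus with Smad4 and switch target genes. Antagonists such as noggin, chordin and follistatin hold ligands away from receptors, and Smad6 and Smad7 inhibit the receptors from inside. In developing salivary glands BMP and TGF-beta ligands are known to influence branching, and in the adult gland TGF-beta is known for its part in fibrosis.

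Levels are log2 signals relative to the 75th percentile of their own array. A level compares 1 probe between arrays and says nothing of one gene against another. A probe counts as well above background where the scanner software called every unflagged spot of it so. Where only 1 array of a pair passed, the difference is a lower bound, taken against the higher of the dim probe's own level and the lowest level well above background on that array (-3.58 for the submandibular-labelled, -3.74 for the sublingual and -3.43 for the parotid array). An error after ± is that of the software's spot error model carried to the difference, and covers measurement within arrays only. Repeat spots of the same probe had a median SD of 0.08 in the submandibular-labelled gland and 0.09 on each of the sublingual and parotid arrays (168 probes on the first, 171 on the sublingual and 178 on the parotid array).

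The glands were checked against marker genes. Of 6 mucous acinar markers probed, 4 of 5 that could be compared were at least 4-fold higher in the submandibular-labelled gland than in the parotid and 1 was lower, and 3 of 4 were higher in the sublingual gland and 1 lower. The mucin Muc19 stood at 9.80 in the submandibular-labelled and 9.71 in the sublingual gland, against -4.19 in the parotid, where it was not well above background. The lower one, Muc5b, passed in the parotid only, Tff3 passed in the submandibular-labelled gland only, and Galnt12 in none. Serous markers went the other way, 8 of 9 being at least 4-fold lower on both arrays than in the parotid. Products of the granular convoluted duct, the segment that marks the submandibular gland of adult male rats, did not mark the array that carries that label. Of 13 such genes probed, none of 10 that could be compared was at least 2-fold higher there than in the parotid, beside 10.9% of all genes. Of 8 compared with the sublingual gland 1, Smr3b, was higher, by at least 2.1-fold. Smr3b stood at -2.66 there, not far above the lowest level that passed, and passed on no other array. Another of the 13, Smr3a, stood at 9.78 in the parotid and did not pass on the array labelled submandibular. The gland of that label is therefore called submandibular-labelled throughout. Its array was also close to the sublingual one, as the counts over all genes in the next paragraphs show. Whether tissue or labels of these arrays were shared or exchanged was not tested and cannot be settled with 1 array per gland, so both labels, and the small differences between the pair, are given with that limit.

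Of the 58 members, 32 were well above background on all 3 arrays, 10 on some and 16 on none. By array, 37 members passed in the submandibular-labelled (63.8%), 38 in the sublingual (65.5%) and 35 in the parotid (60.3%). Over all matched genes the shares were 62.8% in the submandibular-labelled gland, 63.9% in the sublingual gland and 64.5% in the parotid. The parotid thus had the lowest of the 3 shares for members and the highest for all genes. Of all 15973 matched genes, 9413 passed on all 3 arrays, 1543 on some and 5017 on none. At least 1 array was passed by 42 of the 58 members and by 10956 of all genes, and the counts per role below stand beside these. The 16 members not well above background anywhere were Tgfb1, Bmp3, Bmp5, Bmp15, Gdf8, Gdf9, Inhbc, Inhbe, Nodal, Acvr1b, Smad3, Smad5, Smad9, Bmper, Grem1 and Tgfbrap1, and they get no fold.

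In each pair of arrays 40 members could be compared. Between the submandibular-labelled and parotid arrays 4 members were at least 2-fold higher (10.0%), beside 10.9% of all 10794 genes compared, and 4 were at least 2-fold lower (10.0%), beside 11.0%. Between the sublingual and parotid arrays 3 were higher (7.5%), beside 12.5% of 10802 genes, and 8 were lower (20.0%), beside 12.3%. Between the submandibular-labelled and sublingual glands 0 members reached 2-fold in either direction, where 0.588% of 10376 genes were higher and 0.973% lower. Against the parotid the shares of members were near those of all genes for the submandibular-labelled gland, while for the sublingual gland the members' share was below that of all genes on the higher side and above it on the lower side. Of those 3 and 8 members, 2 on each side are lower bounds, and 1 of the 8 is Inhbb, whose probes disagree. Both pairs against the parotid share the parotid array, so their values are not independent of each other.

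Among members well above background on both arrays, the median log2 difference was -0.13 for submandibular-labelled minus parotid (32 members), -0.25 for sublingual minus parotid (33) and 0.10 for submandibular-labelled minus sublingual (35). Over all such genes the medians were 0.13 for submandibular-labelled minus parotid (9523 genes), 0.09 for sublingual minus parotid (9636) and 0.05 for submandibular-labelled minus sublingual (9831). The 35 differences between the submandibular-labelled and sublingual glands ran from -0.48 for Acvr1c to 0.74 for Gdf15, with 25 above 0 and 10 below. The first of the member medians turned to 0.18 when arrays were centred on their medians instead, a scaling that moved the median of all genes by 0.31 in that pair and by 0.24 in the sublingual minus parotid pair. Among all genes 2-fold apart, the share that was higher was 73.9% under that scaling and 62.3% with another background correction (normexp), against 49.8% in the main setting, for submandibular-labelled minus parotid. For sublingual minus parotid it was 69.3% and 65.1%, against 50.4%. The histogram of all genes with the members marked shows most members near 0, within 2-fold of the parotid for 27 of 32 in the submandibular-labelled and 26 of 33 in the sublingual gland. All genes did much the same: 15.6% of these members and 19.3% of all such genes were at least 2-fold from the parotid in the submandibular-labelled gland, and 21.2% of members and 22.3% of all genes in the sublingual gland.

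**Figure D1:**
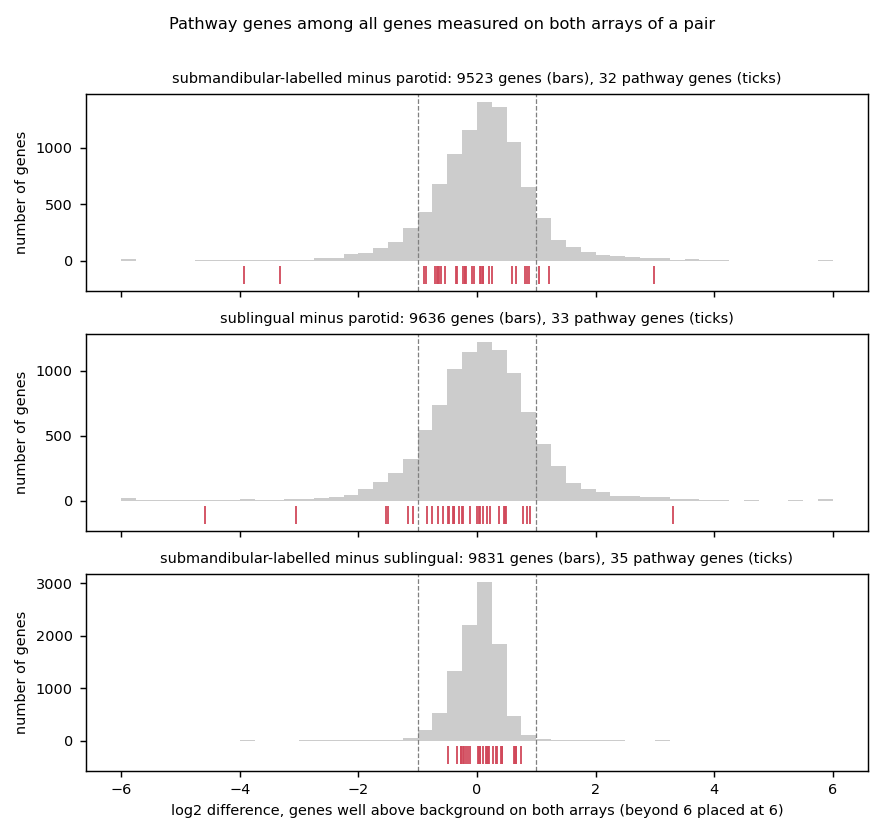
Number of genes (y axis) by log2 difference (x axis) for the 3 pairs of arrays, over genes well above background on both arrays, in grey bars, with each member as a red tick and dashed lines at 2-fold. Gdf5 and Gdf10 lie far to the left and Inha far to the right in both pairs against the parotid, and all 35 members lie within 2-fold between the submandibular-labelled and sublingual glands.

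Of the 3 TGF-beta ligands, Tgfb2 and Tgfb3 were measured on every array. Tgfb3 had levels of 1.43 in the submandibular-labelled and 0.79 in the sublingual gland, against 2.32 in the parotid. It was highest in the parotid, by 1.85-fold over the submandibular-labelled array (log2 difference -0.89 ± 0.20) and by 2.89-fold over the sublingual array (-1.53 ± 0.20). The sublingual difference was at least 2-fold under all 5 alternative settings tried, from -1.70 to -1.29. Tgfb2 stood at -1.65 in the submandibular-labelled and -1.92 in the sublingual gland, against -2.70 in the parotid, lowest in the parotid. The differences from the parotid were 1.05 ± 0.29 for the submandibular-labelled and 0.78 ± 0.29 for the sublingual gland, and with normexp they were 0.26 for both.

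Tgfb1, the isoform best known from fibrosis and immune control, was printed as 10 spots. Well above background were 1 of 10 spots in the submandibular-labelled gland, 1 in the sublingual gland and 4 in the parotid. Mean levels over the spots were -4.10 ± 0.81 in the submandibular-labelled and -4.75 ± 0.97 in the sublingual gland, against -3.34 ± 0.38 in the parotid (SD over 10 spots of 1 array, a technical spread). At this signal no fold can be given for Tgfb1, and its level on these arrays was not detectable above background as a whole.

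Of 15 BMP and GDF ligands, 10 were well above background on at least 1 array. Gdf5, a ligand best known from joint and cartilage formation, differed most. Its levels were 0.14 in the submandibular-labelled and -0.51 in the sublingual gland, against 4.08 in the parotid. It was 15.3-fold lower in the submandibular-labelled than in the parotid (-3.93 ± 0.21) and 24.1-fold lower in the sublingual gland (-4.59 ± 0.21). All 3 values were well above background, so both folds are measured and not bounds.

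Gdf10, also called BMP3b, had levels of -2.42 in the submandibular-labelled and -2.15 in the sublingual gland, against 0.90 in the parotid. It was also highest in the parotid, 9.99-fold lower in the submandibular-labelled gland (-3.32 ± 0.25) and 8.32-fold lower in the sublingual gland (-3.06 ± 0.23). Its probe lies at chr16:9570485-9570544 of rn4, while the Gdf5 probe carries no position in the files. Gdf5 and Gdf10 stayed at least 2-fold lower against the parotid in all 5 alternative settings, where Gdf10 spanned -3.34 to -2.15 for the submandibular-labelled and -3.08 to -1.99 for the sublingual gland.

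The RefSeq promoter table (GRCr8) held 47 of the 58 members, with a median GC content of 64.8% against 51.2% over all 33469 promoters. The 250 bases before the start of Gdf10 (chr16:9243262-9243511, plus strand, GC 76.0%) are shown because the gene is among those with the largest differences. Capitals mark letters that match motifs of the pathway, the Smad box CAGAC, which begins 166 bases before the start, and the GC element GGCGCC described for BMP-responsive genes, 53 bases before it.
Gdf10: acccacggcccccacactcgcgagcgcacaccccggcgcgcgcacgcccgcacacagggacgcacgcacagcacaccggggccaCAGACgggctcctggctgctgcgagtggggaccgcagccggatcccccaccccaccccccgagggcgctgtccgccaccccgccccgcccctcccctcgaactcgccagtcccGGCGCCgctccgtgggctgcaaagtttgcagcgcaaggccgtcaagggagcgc
Both strands were searched, and CAGAC was in 42.9% and GGCGCC in 8.69% of all promoters in the table, so these matches only describe the sequence. The motifs were chosen with the sequences in view.

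Other ligands of the group differed less. Gdf11, a close relative of myostatin, stood at -0.59 in the submandibular-labelled and -0.91 in the sublingual gland, against -1.81 in the parotid. It was lowest in the parotid, with the submandibular-labelled gland 2.32-fold (1.21 ± 0.24) and the sublingual gland 1.87-fold above it (0.90 ± 0.24). Under the alternative settings the submandibular-labelled difference spanned 0.51 to 1.52 and the sublingual one -0.10 to 1.14. Bmp6, a ligand that controls hepcidin and iron in the liver, stood at -1.87 in the submandibular-labelled and -2.04 in the sublingual gland and was not well above background in the parotid (-5.07). Against the parotid it was higher by 2.95-fold or more in the submandibular-labelled and by 2.63-fold or more in the sublingual gland, although with normexp the differences were 0.53 for the submandibular-labelled and 0.60 for the sublingual gland.

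Bmp7, Bmp2, Gdf6, Gdf7 and Gdf15 were well above background on all arrays and less than 2-fold apart in every pair. Bmp7, known from kidney development, stood at -0.17 in the submandibular-labelled and -0.58 in the sublingual gland, against -0.09 in the parotid. Gdf6 stood at -2.77 in the submandibular-labelled and -2.50 in the sublingual gland, against -2.10 in the parotid. By the brightest probe of each gene Bmp2 and Gdf7 were the most even. Bmp2 had levels of -3.03 in the submandibular-labelled, -2.84 in the sublingual and -2.84 in the parotid, not far above the lowest levels that passed. A second Bmp2 probe passed on no array. The mean of both probes gave differences from the parotid of -0.61 for the submandibular-labelled and -0.41 for the sublingual gland. Gdf7 had levels of -1.92 in the submandibular-labelled, -2.11 in the sublingual and -1.86 in the parotid gland. Gdf15, a stress-responsive member, stood at 1.79 in the submandibular-labelled, 1.05 in the sublingual and 0.95 in the parotid, and its 0.74 between the submandibular-labelled and sublingual glands was the largest of the 35 measured differences in that pair. Bmp4 was well above background in the sublingual gland only, at -3.40, close to the lowest level that passed.

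Activins and inhibins are built from the same subunits: pairs of beta subunits make activins, and a beta subunit joined to the alpha subunit Inha makes inhibin, which opposes activin. Inha had levels of 1.15 in the submandibular-labelled and 1.48 in the sublingual gland, against -1.82 in the parotid. It was 7.88-fold higher in the submandibular-labelled (2.98 ± 0.23) and 9.90-fold higher in the sublingual gland (3.31 ± 0.23). By the brightest probe of each gene it was the single member at least 4-fold higher on either array than in the parotid, and under the 5 alternatives it stayed between 2.11 and 3.29 for the submandibular-labelled and between 2.39 and 3.55 for the sublingual gland. The probe lies at chr9:74783980-74784040 of rn4.

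The promoter of Inha (chr9:84442859-84443108 of GRCr8, plus strand, GC 58.4%) is shown as that of the member with the largest difference in this direction. Capitals mark a Smad box, 127 bases before the start, and TGCGTCA, a variant of the cAMP response element known from this gene, 119 bases before it.
Inha: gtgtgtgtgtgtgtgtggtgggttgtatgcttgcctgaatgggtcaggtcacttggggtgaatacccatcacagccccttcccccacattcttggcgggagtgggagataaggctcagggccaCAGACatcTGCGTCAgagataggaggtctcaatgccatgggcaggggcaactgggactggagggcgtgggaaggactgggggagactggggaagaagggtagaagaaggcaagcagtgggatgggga
On both strands TGCGTCA was in 1.66% of all promoters of the table. The palindromes GTCTAGAC and TGACGTCA, in 0.173% and 1.59% of promoters, were in neither window, and GGCGCC was not in that of Inha.

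The beta B subunit Inhbb gave opposite answers from its 3 probes. The brightest probe, A_44_P332702, which stands for the gene in every count, had levels of 7.22 in the submandibular-labelled and 6.57 in the sublingual gland, against 8.08 in the parotid. By that probe Inhbb was lower than in the parotid, by 1.81-fold in the submandibular-labelled (-0.86 ± 0.20) and by 2.84-fold in the sublingual gland (-1.51 ± 0.20). The probe A_44_P576822 had 2.95 in the submandibular-labelled and 3.14 in the sublingual gland, against -1.36 in the parotid.

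By that second probe Inhbb was higher than in the parotid, by 19.9-fold in the submandibular-labelled and 22.7-fold in the sublingual gland. The probe A_44_P288117 also read higher, -2.31 in the submandibular-labelled and -2.43 in the sublingual gland, with the parotid not well above background. The bounds of its folds over the parotid were at least 2.18-fold for the submandibular-labelled and at least 2.01-fold for the sublingual gland. In rn4 the files place the probes at chr13:32173603-32176234, chr13:32171058-32171117 and chr13:32173421-32173480, in the order named. When the probes were averaged, sublingual minus parotid turned to 2.10 and submandibular-labelled minus parotid to 2.29, so these data give no single direction for Inhbb.

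**Figure D2:**
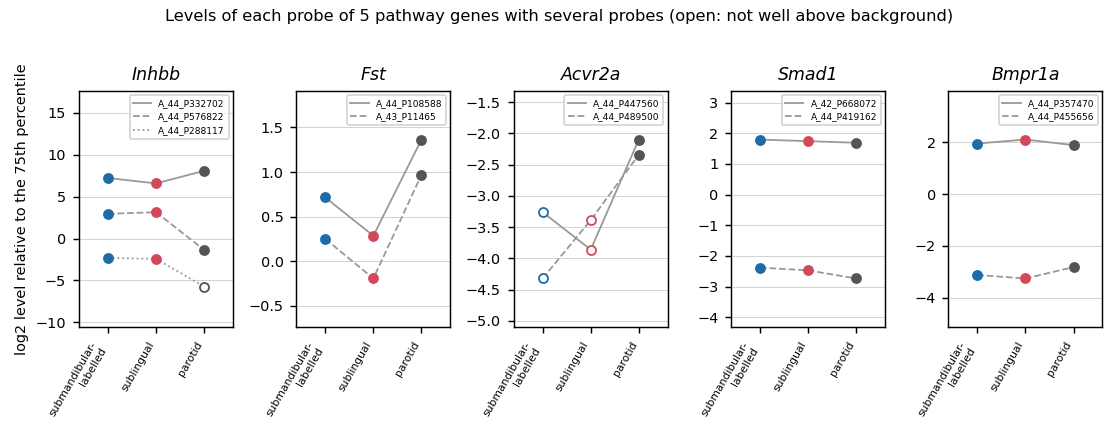
Log2 level relative to the array's 75th percentile (y axis) of each probe on the submandibular-labelled, sublingual and parotid arrays (x axis) for 5 members with several probes, each line being 1 probe and open circles marking values not well above background. The Inhbb probes part in the parotid, at 8.08 for one and -1.36 for another, while both Fst probes and both Acvr2a probes are highest there.

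Of 11 members with several probes, 6 had at least 2 probes that could be compared in a pair, and Inhbb was the 1 whose probes went opposite ways by at least 2-fold each, for sublingual minus parotid. Inhba, the beta A subunit, passed in the parotid only, at -2.53, with -3.76 in the submandibular-labelled and -4.32 in the sublingual gland. It was lower than in the parotid by 2.06-fold or more in the submandibular-labelled and 2.30-fold or more in the sublingual gland, and both fell short of 2-fold in 3 of the 5 alternatives. Amh, anti-Müllerian hormone, stood at -3.43 in the sublingual gland against -2.58 in the parotid, and was not well above background in the submandibular-labelled gland (-4.06). Its largest difference, at least 1.99-fold lower in the submandibular-labelled gland, was just short of 2-fold. Inhbc, Inhbe and Nodal were not well above background on any array.

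**Figure D3:**
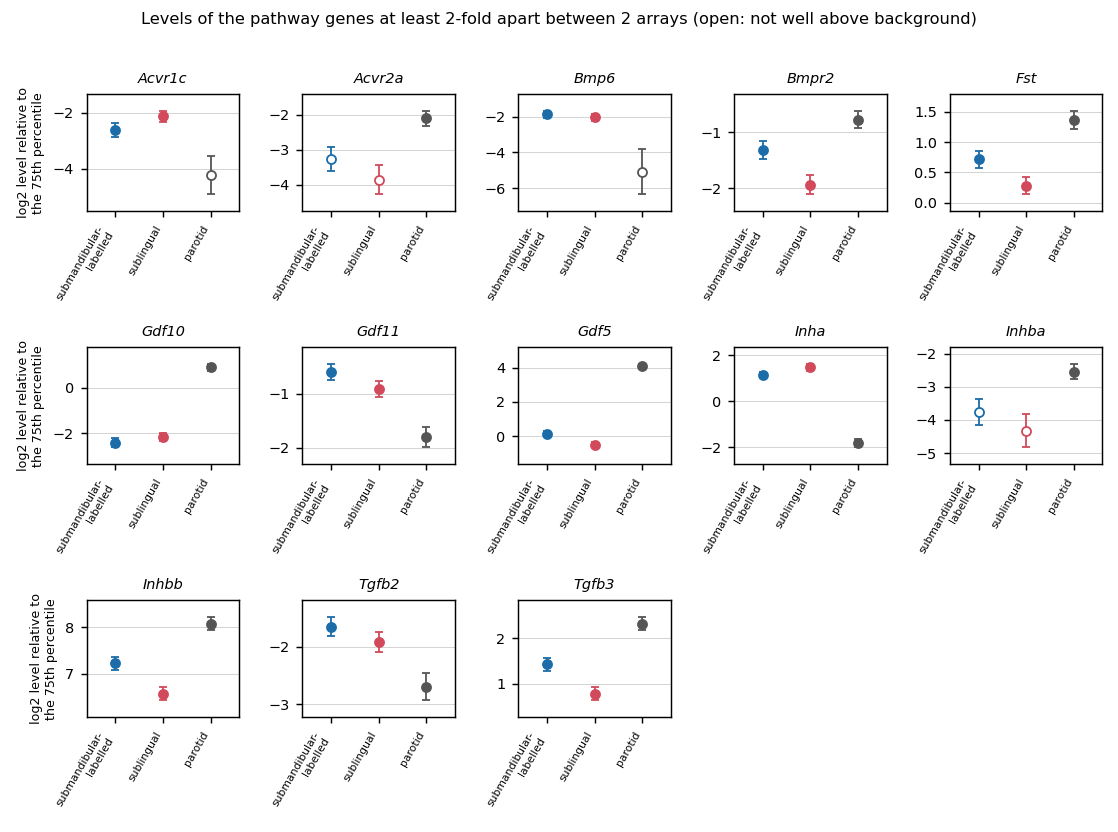
Log2 level relative to the array's 75th percentile (y axis, each panel with its own scale) on the submandibular-labelled, sublingual and parotid arrays (x axis) for the 13 members at least 2-fold apart in any pair, with bars for the software's error of the spot and open circles for values not well above background. In every panel the parotid value is the highest or the lowest of the 3. This follows largely from the choice of genes, as no member was 2-fold apart between the submandibular-labelled and sublingual glands. Inhbb is shown by its brightest probe, and its other probes were lowest in the parotid.

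Among 12 receptors, 11 were well above background on at least 1 array. Acvr2a, a type II receptor for activins, passed in the parotid only, with -3.26 in the submandibular-labelled and -3.86 in the sublingual gland, against -2.10 in the parotid. It was lower than in the parotid by 2.24-fold or more in the submandibular-labelled and 3.11-fold or more in the sublingual gland. Its other probe gave bounds of 2.36-fold for the submandibular-labelled and 2.07-fold for the sublingual gland. With normexp the differences of Acvr2a were -0.50 for the submandibular-labelled and -0.59 for the sublingual gland. Bmpr2, the type II receptor for BMPs, stood at -1.31 in the submandibular-labelled and -1.94 in the sublingual gland, against -0.77 in the parotid. It was lower than in the parotid by 1.46-fold in the submandibular-labelled (-0.54 ± 0.23) and 2.24-fold in the sublingual gland (-1.17 ± 0.24). Under the 5 alternatives the sublingual difference of Bmpr2 lay between -1.17 and -0.60, at least 2-fold in 3 of them.

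Acvr1c, the type I receptor also known as ALK7, was at least 2-fold higher in the sublingual gland than in the parotid. Of 10 receptors compared in each gland, it was the 1 to reach 2-fold higher, beside 12.5% of all genes in the sublingual gland. It stood at -2.61 in the submandibular-labelled and -2.12 in the sublingual gland and was not well above background in the parotid (-4.23). The bounds of its folds over the parotid were at least 1.77-fold for the submandibular-labelled and at least 2.48-fold for the sublingual gland, and with normexp the differences were 0.03 for the submandibular-labelled and 0.09 for the sublingual gland. Acvr2b was also higher than in the parotid, by 1.58-fold in the submandibular-labelled and 1.37-fold in the sublingual gland, with levels of -1.15 in the submandibular-labelled and -1.35 in the sublingual gland, against -1.80 in the parotid.

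Among receptors of TGF-beta itself, Tgfbr2 and Tgfbr3 differed by less than 2-fold. Tgfbr2, the type II receptor, stood at -2.85 in the submandibular-labelled and -2.90 in the sublingual gland, against -2.52 in the parotid. Tgfbr3 (betaglycan, a co-receptor) stood at -2.96 in the submandibular-labelled and -2.73 in the sublingual gland, against -2.25 in the parotid. Tgfbr2 was lower than in the parotid by 1.26-fold in the submandibular-labelled and 1.30-fold in the sublingual gland, and Tgfbr3 by 1.63-fold in the submandibular-labelled and 1.39-fold in the sublingual gland. Tgfbr1, the type I partner, passed in the sublingual gland only, at -3.39, so its differences have only lower bounds, and Acvr1b passed in none.

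Acvrl1, the endothelial receptor ALK1, stood at 0.61 in the submandibular-labelled and 0.46 in the sublingual gland, against 1.22 in the parotid. It was lower than in the parotid by 1.52-fold in the submandibular-labelled and 1.69-fold in the sublingual gland. Over all genes compared, 11.0% were at least 2-fold lower than in the parotid in the submandibular-labelled and 12.3% in the sublingual gland. Of 10 endothelial markers probed, 9 could be compared, and 1 was that much lower in the submandibular-labelled and 5 in the sublingual gland. Their summed signal, in units of each array's 75th percentile, was 11.6 in the submandibular-labelled and 13.1 in the sublingual gland, against 20.5 in the parotid, and Kdr alone made up 77.2% of it in the submandibular-labelled and 84.0% in the sublingual gland, against 81.7% in the parotid. Such a sum, here and for the marker lists below, adds signals of different probes and is no measure of cell content. Vwf was higher than in the parotid, by 0.51 in the submandibular-labelled and 0.16 in the sublingual gland. Tek was not well above background on any array, and Pecam1 passed in the parotid only. The part of endothelial content in the Acvrl1 values was not tested.

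Bmpr1a, the BMP type I receptor, was the most even receptor. Its levels were 1.95 in the submandibular-labelled, 2.11 in the sublingual and 1.89 in the parotid, with differences from the parotid of 0.06 ± 0.20 for the submandibular-labelled and 0.22 ± 0.20 for the sublingual gland. A second Bmpr1a probe gave -0.30 for the submandibular-labelled and -0.44 for the sublingual gland. Acvr1 stood at -3.16 in the submandibular-labelled and -3.21 in the sublingual gland and was not well above background in the parotid (-3.84), and Bmpr1b passed in the submandibular-labelled gland only, at -2.97. Their bounds, at most 1.47-fold, did not reach 2-fold.

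Of 8 Smads, 5 could be compared, each measured on all 3 arrays, and none of these was 2-fold apart in any pair. Among all genes measured on both arrays, 19.3% were at least 2-fold from the parotid in the submandibular-labelled and 22.3% in the sublingual gland. So few Smads cannot set the group apart from all genes. Smad1, which carries BMP signals, stood at 1.79 in the submandibular-labelled and 1.74 in the sublingual gland, against 1.69 in the parotid. Smad4, the shared partner, stood at -1.09 in the submandibular-labelled and -0.86 in the sublingual gland, against -0.90 in the parotid. By the brightest probe of each gene these were the most even Smads, with no difference beyond 0.23 in size. A second Smad1 probe gave differences from the parotid of 0.35 for the submandibular-labelled and 0.27 for the sublingual gland.

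Smad2, which carries TGF-beta and activin signals, stood at -1.60 in the submandibular-labelled and -1.61 in the sublingual gland, against -0.95 in the parotid. It was lower than in the parotid by 1.57-fold in the submandibular-labelled and 1.58-fold in the sublingual gland. Smad7, an inhibitory Smad, stood at 0.94 in the submandibular-labelled and 0.91 in the sublingual gland, against 0.06 in the parotid. It was higher by 1.84-fold in the submandibular-labelled and 1.80-fold in the sublingual gland, and passed 2-fold in 1 of the 5 alternatives, centring on the median (differences of 1.19 for the submandibular-labelled and 1.09 for the sublingual gland). Smad6, the other inhibitory Smad, stood at -2.75 in the submandibular-labelled and -2.64 in the sublingual gland, against -3.02 in the parotid. Smad3, Smad5 and Smad9 were not well above background on any array.

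Of 10 extracellular regulators, 8 were well above background on at least 1 array. Against the parotid 0 of 8 compared reached 2-fold in the submandibular-labelled gland, and 1 of 7 did in the sublingual gland, on the lower side. Over all genes compared, 11.0% were lower in the submandibular-labelled and 12.3% in the sublingual gland. Fst (follistatin), which binds activins, had levels of 0.71 in the submandibular-labelled and 0.28 in the sublingual gland, against 1.36 in the parotid. It was lower than in the parotid by 1.57-fold in the submandibular-labelled (-0.65 ± 0.21) and 2.12-fold in the sublingual gland (-1.08 ± 0.21). Its second probe gave -0.72 for the submandibular-labelled and -1.16 for the sublingual gland. The sublingual difference lay between -1.18 and -0.84 under the 5 alternatives, at least 2-fold in 3 of them.

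The most even regulators were Ltbp1, a latent TGF-beta binding protein, and Fstl3, a relative of follistatin. Ltbp1 stood at 1.16 in the submandibular-labelled, 1.13 in the sublingual and 1.36 in the parotid. Fstl3 stood at -0.84 in the submandibular-labelled, -0.88 in the sublingual and -0.48 in the parotid gland. Ltbp2, Chrd (chordin) and Fstl1 were likewise less than 2-fold apart. Chrd stood at -1.86 in the submandibular-labelled and -2.20 in the sublingual gland, against -1.62 in the parotid, and Ltbp2 at -1.44 in the submandibular-labelled and -1.53 in the sublingual gland, against -2.03 in the parotid. Bmp1, a metalloprotease that cleaves procollagen and chordin and is no ligand, stood at 3.35 in the submandibular-labelled and 3.61 in the sublingual gland, against 3.14 in the parotid. Nog (noggin) passed in the submandibular-labelled gland only, at -2.97, and Grem1 (gremlin) and Bmper on none.

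The name rule also took in genes that are neither ligand, receptor nor Smad. Tgfb1i4, the transcription factor Tsc22d1, stood at 3.43 in the submandibular-labelled, 3.26 in the sublingual and 3.38 in the parotid. Tgfb1i1, the focal adhesion protein Hic-5 of contractile and stromal cells, stood at -0.46 in the submandibular-labelled and -1.11 in the sublingual gland, against -1.27 in the parotid. It was higher than in the parotid by 1.76-fold in the submandibular-labelled and 1.12-fold in the sublingual gland, and submandibular-labelled minus sublingual gave 0.65. Over all genes compared, 10.9% exceeded the parotid by 2-fold or more in the submandibular-labelled and 12.5% in the sublingual gland. Of 6 myoepithelial markers probed, 5 could be compared, and 5 did so in the submandibular-labelled and 4 in the sublingual gland. Their summed signal was 64.3 in the submandibular-labelled and 53.1 in the sublingual gland, against 21.4 in the parotid. Oxtr was not well above background on any array. The part of myoepithelial content in the Tgfb1i1 values was not tested.

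**Figure D4:**
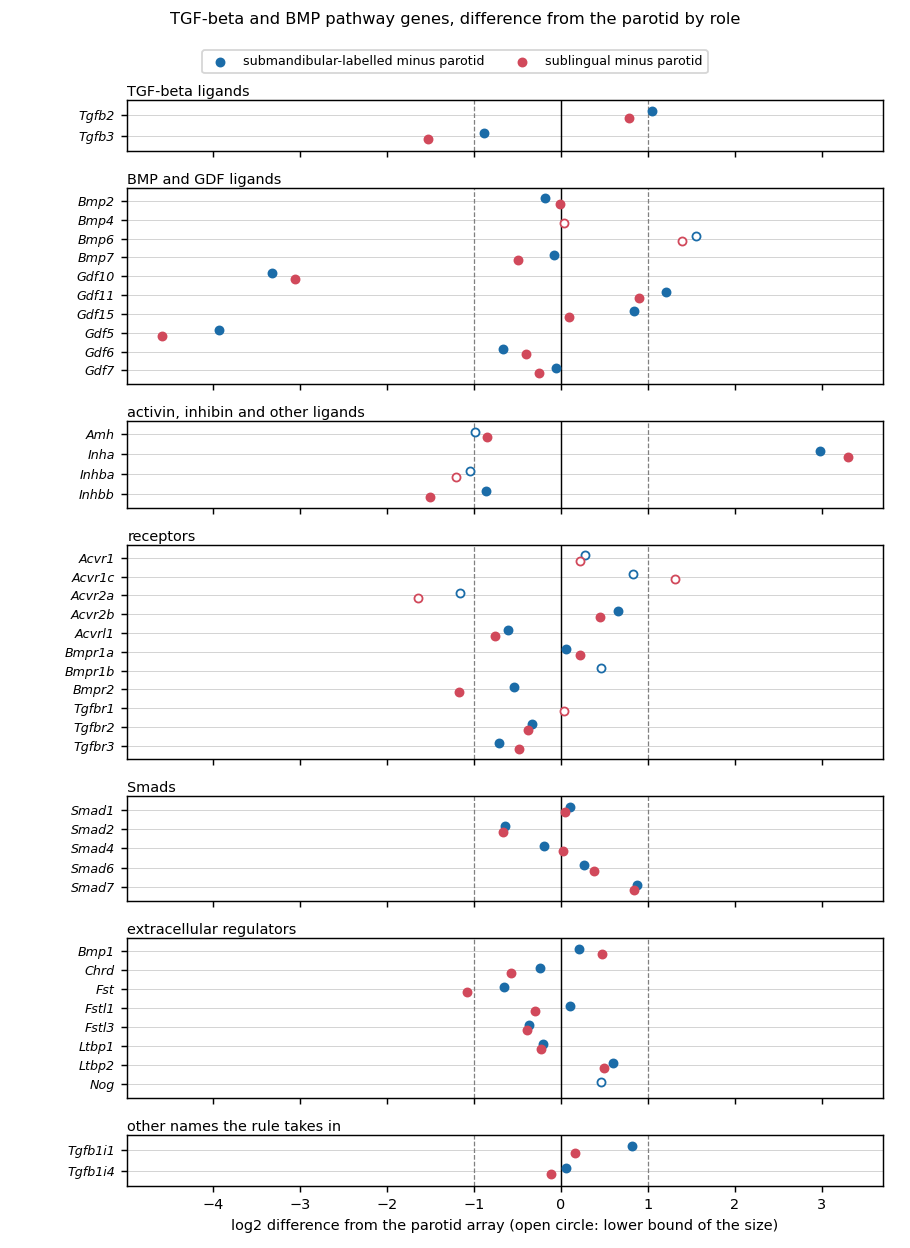
Log2 difference from the parotid array (x axis) of each member with a value, grouped by role (y axis), in blue for the submandibular-labelled and red for the sublingual array, with open circles for lower bounds and dashed lines at 2-fold. Gdf5, Gdf10 and Inha lie beyond 4-fold in both colours and none of the 5 Smads with a value passes 2-fold.

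Other genes of the pathway were taken from lists that the rule does not cover. Of 37 modulators probed, 28 could be compared with the parotid. For the submandibular-labelled gland 5 reached 2-fold higher and 1 lower, with a median of 0.47 over those measured, and in the sublingual gland 5 were higher and 2 lower, with a median of 0.32. Centring arrays on their medians instead gave 0.78 for the submandibular-labelled and 0.56 for the sublingual gland. The shares over all genes are those given above. Between the submandibular-labelled and sublingual glands 0 of 27 were 2-fold apart.

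Bambi, a pseudoreceptor that blocks signalling, had levels of 1.87 in the submandibular-labelled and 1.71 in the sublingual gland, against -0.61 in the parotid. It was higher by 5.58-fold in the submandibular-labelled and 4.99-fold in the sublingual gland. Pmepa1, an inhibitor that is itself a TGF-beta target, had 1.03 in the submandibular-labelled and 0.39 in the sublingual gland, against -1.31 in the parotid. It was higher by 5.06-fold in the submandibular-labelled and 3.25-fold in the sublingual gland. Both inhibitors were lowest in the parotid, as were Smurf2, Crim1 and Furin. Smurf2, a ubiquitin ligase for receptors and Smads, was 2.10-fold higher in the submandibular-labelled and 2.36-fold higher in the sublingual gland. Crim1, a membrane protein that binds BMPs, was 2.50-fold higher in the submandibular-labelled and 2.07-fold higher in the sublingual gland. Furin, which cleaves ligand precursors, was 2.43-fold higher in the submandibular-labelled and 2.05-fold higher in the sublingual gland. The matrix fibrillin Fbn2 was highest in the parotid, 2.43-fold lower in the submandibular-labelled and 2.84-fold lower in the sublingual gland. Skil, a Smad co-repressor, was lower by 2.03-fold or more in the sublingual gland.

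Of 26 known targets of the pathway probed, 22 could be compared with the parotid. For the submandibular-labelled gland 2 were at least 2-fold higher and 11 lower, with a median of -0.76. In the sublingual gland 3 were higher and 12 lower, with a median of -1.05. Over all genes compared, 10.9% were higher and 11.0% lower in the submandibular-labelled gland, with a median of 0.13 over those measured. For the sublingual gland 12.5% were higher and 12.3% lower, with a median of 0.09. Between the submandibular-labelled and sublingual glands 0 of 21 were 2-fold apart, beside 0.588% of all genes higher and 0.973% lower. Centring on the medians instead gave target medians of -0.45 for the submandibular-labelled and -0.81 for the sublingual gland. That scaling moves every gene of a pair alike. Over all genes well above background on all 3 arrays it gave 0.45 for the submandibular-labelled and 0.35 for the sublingual gland. The targets are also genes of connective tissue in part: Col1a1, Col1a2 and Col3a1 stand in the fibroblast list as well. Of 12 fibroblast markers probed, 11 could be compared, and 5 were at least 2-fold lower in each gland than in the parotid with 0 higher. In the main setting the medians of these markers were -0.87 for the submandibular-labelled and -0.83 for the sublingual gland, beside 0.13 and 0.09 over all genes. Their summed signals were 75.1 in the submandibular-labelled and 86.5 in the sublingual gland, against 212 in the parotid, and Thy1 was not well above background on any array.

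Markers of immune and fat cells that could be compared were also lower than in the parotid. Over all genes compared, 11.0% were at least 2-fold lower in the submandibular-labelled and 12.3% in the sublingual gland, and 10.9% and 12.5% higher. Of 11 immune markers probed, 7 could be compared and 5 were at least 2-fold lower in each gland. Their summed signal was 31.9 in the submandibular-labelled and 28.1 in the sublingual gland, against 77.1 in the parotid. Cd74 alone made up 61.3% of that sum in the submandibular-labelled, 54.2% in the sublingual and 67.4% in the parotid gland. Of 6 adipocyte markers, 3 could be compared, with 3 lower in the submandibular-labelled and 2 in the sublingual gland. Their summed signal was 4.15 in the submandibular-labelled and 5.57 in the sublingual gland, against 9.79 in the parotid. Cfd alone made up 81.2% of that sum in the submandibular-labelled, 84.6% in the sublingual and 74.1% in the parotid gland. Not well above background on any array were 4 immune markers, Cd3e and Cd4 among them, and 3 adipocyte markers, Plin1 and Lep among them. Other markers of the same cells did pass. Cd3g passed on all 3 arrays, 5.10-fold lower than in the parotid in the submandibular-labelled and 2.59-fold lower in the sublingual gland. Adipoq also passed on all 3, 4.06-fold lower in the submandibular-labelled and 2.66-fold lower in the sublingual gland. Cd8a passed in the parotid only. Of 4 lymph node or plasma cell markers probed, 3 could be compared, with 2 at least 2-fold lower in each gland than in the parotid and 1 higher. Their summed signal was 3.25 in the submandibular-labelled and 4.35 in the sublingual gland, against 11.2 in the parotid. Jchain alone made up 67.2% of that sum in the submandibular-labelled, 67.1% in the sublingual and 89.1% in the parotid gland. Of 4 muscle markers, the 2 that could be compared went opposite ways, Des lower and Acta1 higher in each gland than in the parotid. The part of stromal, immune, plasma, muscle and fat cells in the target values, and in those of Tgfb3, Gdf10, Gdf5 and the other members high in the parotid, was not tested.

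The Id genes, direct BMP targets that block basic helix-loop-helix factors, did not go one way. Id1 had levels of -0.60 in the submandibular-labelled and -0.27 in the sublingual gland, against 0.79 in the parotid. Id3 had 0.08 in the submandibular-labelled and 0.05 in the sublingual gland, against 1.20 in the parotid. Both were highest in the parotid, Id1 by 2.62-fold over the submandibular-labelled and 2.07-fold over the sublingual gland and Id3 by 2.17-fold over the submandibular-labelled and 2.22-fold over the sublingual gland. Id4 went the other way, with 3.90 in the submandibular-labelled and 3.68 in the sublingual gland, against 1.04 in the parotid. It was higher by 7.26-fold in the submandibular-labelled and 6.23-fold in the sublingual gland, and Id2 by 1.74-fold in the submandibular-labelled and 2.17-fold in the sublingual gland.

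Several matrix targets were lower in both glands than in the parotid. Fn1 (fibronectin) was 5.35-fold lower in the submandibular-labelled and 3.84-fold lower in the sublingual gland. Both Fn1 and the collagen Col1a1 were highest in the parotid. Col1a1 was 4.22-fold lower in the submandibular-labelled and 3.23-fold lower in the sublingual gland. Timp1, an inhibitor of matrix proteases, was 2.95-fold lower in the submandibular-labelled and 2.79-fold lower in the sublingual gland. Postn (periostin) passed in the parotid only, at 0.05, and was lower by 12.3-fold or more in the submandibular-labelled and 13.8-fold or more in the sublingual gland. Postn, Fn1 and Timp1 went the same way as most fibroblast markers, and Col1a1 is itself in that marker list. Msx1, a homeobox target of BMPs, was 3.42-fold lower in the submandibular-labelled and 3.48-fold lower in the sublingual gland. Tagln, a smooth muscle target also found in myoepithelium, was 3.19-fold higher in the submandibular-labelled and 2.42-fold higher in the sublingual gland. Ccn2, a classic TGF-beta target, was within 1.15-fold of the parotid on both arrays.

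**Figure D5:**
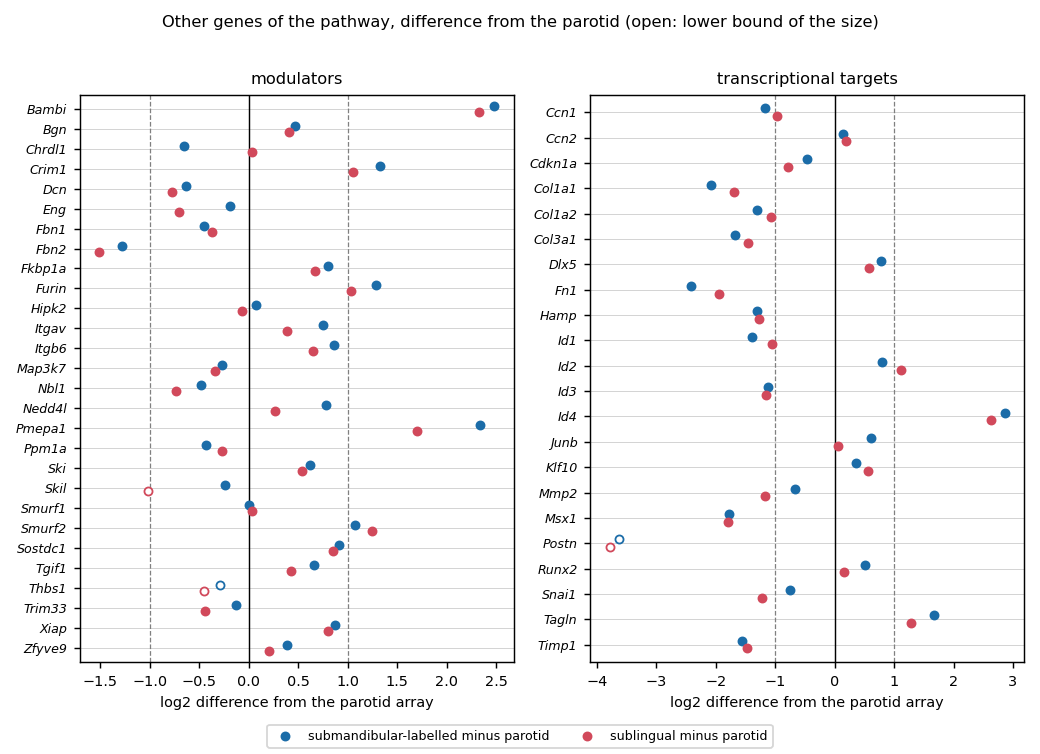
Log2 difference from the parotid array (x axis) of modulators (left) and known target genes (right) of the pathway with a value, in blue for the submandibular-labelled and red for the sublingual array, with open circles for lower bounds and dashed lines at 2-fold. Bambi, Pmepa1 and Id4 lie to the right, and the collagens, Fn1, Msx1 and Postn to the left.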

How the data were processed

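Total RNA of gland pieces was amplified and labelled with Cy3, per the labels' protocols. Per the file headers, the deposited intensity of each spot came from Agilent Feature Extraction 10.1.1.1 (protocol GE1-v5_10_Apr08, array design 014879, rn4), with all arrays on 1 slide. The deposited mean signal, local background and signal error are intensity values too, and the other columns used are flags of 0 or 1. The authors' deposited value table is a linear ratio. Its values match each array's processed signals over 236 (submandibular-labelled), 250 (sublingual) and 190 (parotid), with medians of 0.122, 0.128 and 0.152, no centring by gene and a settled direction.

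Each level is the log2 processed signal of a probe, less the 75th percentile of its array (signals of 228, 244 and 186). Control spots and outlier spots (79, 73 and 68) were left out, no spot was saturated, and the brightest probe stood for a gene. Of 41012 probes, 20386 matched RefSeq genes (10942 by accession, 5040 by symbol, 3365 by older symbol, 1039 by gene identifier). Members, lists and the rule for named genes (every member 2-fold apart in any pair, TGF-beta ligands, receptors and Smads, and the 2 most even members per role) were chosen with earlier results of these data known. Alternatives were normexp (limma 3.58.1, offset 50), quantile normalization, median centring, the value table, the mean of a gene's probes, no bounds, probes for genes and 4-fold. Calls were tested on simulated data. Python 3.11.15 and R 4.3.3 were used. The number of arrays limits precision.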

Additional observations from a re-analysis of the deposited data

How the results depend on the processing

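No paired analysis was possible because each gland had 1 array. Of 19 differences of at least 2-fold among the named members, 7 were at least 2-fold in the same direction in all 5 settings tried for single genes (Gdf5, Gdf10 and Inha in both pairs against the parotid, and Tgfb3 for sublingual minus parotid), and 12 fell below in at least 1. Submandibular-labelled minus parotid gave 4 members higher and 4 lower, against 1 and 2 with normexp, 8 and 2 with median centring and 1 and 2 at 4-fold. Without bounds 2 were lower. Its median of -0.13 became 0.18 with median centring. Over all genes compared in that pair, 10.9% were higher and 11.0% lower in the main setting. These shares were 7.7% and 4.6% with normexp and 19.6% and 6.9% with median centring. Without bounds 8.8% of all genes were lower, and at 4-fold 309 of 10794 genes were higher and 301 lower. Sublingual minus parotid gave 3 higher and 8 lower, against 1 and 4 with normexp, 6 and 5 with median centring and 1 and 2 at 4-fold. Its higher count was also 5 with quantile normalization, 5 by probes and 1 without bounds, and its median of -0.25 became -0.13, -0.16 and -0.0104 with normexp, quantile normalization and median centring. Over all genes compared in that pair, 12.5% were higher and 12.3% lower in the main setting. These shares were 9.4% and 5.1% with normexp and 18.8% and 8.4% with median centring. The share higher was 10.9% with quantile normalization and 12.2% without bounds. At 4-fold 329 of 10802 genes were higher and 307 lower. Submandibular-labelled minus sublingual had a median of 0.10, or 0.0037 with normexp. Inhbb turned to 2.10 for sublingual minus parotid with the mean of its probes. Fewer bounds and a higher threshold shrink counts by construction. Median centring adds the same amount to every difference of a pair, 0.31 for the submandibular-labelled and 0.24 for the sublingual array against the parotid. That raises the counts higher and reduces the counts lower by construction. Normexp was run with an offset of 50 added to each signal, which by construction shrinks differences of dim probes. For the rest of the normexp changes and for the remaining settings the cause was not tested. Counting a probe that passed on at least 50% of its spots, chosen after seeing the data, changed 1 count, from 4 to 5 members lower on the submandibular-labelled array. Signal near background limits the 16 members that passed nowhere and those given as bounds.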
